A study of Rattus norvegicus with 30 samples.

Results

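The genes of fatty acid synthesis and fatty acid desaturation were followed in rat liver after exposure to DE-71, a commercial flame retardant made of polybrominated diphenyl ethers (PBDE). The set was 10 genes chosen by name (Acly, Acaca, Fasn, Elovl6, Scd, Fads1, Fads2, Me1, Srebf1 and Thrsp), read by 17 probe sets of the 31042 tested on the array. A gene's level was taken from 1 representative probe set, which names that gene alone and has the highest mean over all arrays of those that do, and 14217 genes had one. All 17 probe sets entered the test, with no filter on low signal.

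Total RNA from whole liver was hybridised to 30 Affymetrix Rat Genome 230 2.0 arrays, 1 per animal. All animals were Wistar/Han rats of the CRL:WI (HAN) stock, with no engineered allele. There were 6 groups of 5 livers: PBDE male pups, control male pups, PBDE female pups and control female pups, all taken on postnatal day 22, and PBDE adult males and control adult males, taken at week 13. Per the labels' protocols, PBDE animals received 50 mg/kg and controls 0 mg/kg, by gavage in corn oil. Elsewhere the labels call the control animals untreated, and the protocols are followed here. Dams were dosed from gestation day 6 and the pups themselves until postnatal day 21, on 7 days per week. Adults went on being dosed on 5 days per week after weaning. No dam gave more than 1 pup, and within a dose group no dam gave more than 1 adult. Of the 10 adult males killed per dose group, 5 were used here.

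Values are on a log2 scale, so that a difference of 1 is a doubling of signal, and levels are not set against each other between genes. A gene passed the test in a comparison of pups at an adjusted p of 0.01 or below, and in a comparison with adults at 0.05 or below, from limma with Benjamini-Hochberg adjustment over all 31042 probe sets. Array medians lay between 5.72 and 5.77. Array names divided the arrays into 2 batches, the first holding male PBDE, male control and female control pups, the second female PBDE pups and all adults. The dose comparison was therefore within a batch for male pups and for adults, whereas in female pups batch and dose cannot be told apart. The hepatocyte markers Alb and Ttr read at least 15.42 and 14.76 on every array, and the mean of 7 hepatocyte markers ranged from 14.43 to 14.66 over the 30 arrays, with values by dose given beside the other cell markers. In whole tissue, fewer cells of a type and less RNA per cell cannot be told apart.

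De novo lipogenesis turns citrate from the mitochondria into fatty acids in the cytosol: ATP citrate lyase (Acly) makes acetyl-CoA, acetyl-CoA carboxylase (Acaca) makes malonyl-CoA, fatty acid synthase (Fasn) builds palmitate and Elovl6 lengthens it. Stearoyl-CoA desaturase (Scd) makes monounsaturated fatty acids, Fads1 and Fads2 act on the polyunsaturated fatty acids of the diet, and cytosolic malic enzyme (Me1) supplies NADPH for the synthesis. Srebf1 encodes a transcription factor that is released from the membrane by proteolysis and switches on most of these genes in liver, and Thrsp encodes a small lipogenic protein induced by thyroid hormone and carbohydrate feeding.

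RefSeq promoter windows (build GRCr8, 250 bases before to 50 after the annotated start) were held for 7 of the 10 genes, in 8 windows. Acaca, Fasn and Elovl6 are named only. The window of Me1, the gene that rose in all 3 dose comparisons, lies at chr8:96540195-96540494 on the minus strand, and capitals mark its match to the antioxidant element TGACNNNGC.
Me1: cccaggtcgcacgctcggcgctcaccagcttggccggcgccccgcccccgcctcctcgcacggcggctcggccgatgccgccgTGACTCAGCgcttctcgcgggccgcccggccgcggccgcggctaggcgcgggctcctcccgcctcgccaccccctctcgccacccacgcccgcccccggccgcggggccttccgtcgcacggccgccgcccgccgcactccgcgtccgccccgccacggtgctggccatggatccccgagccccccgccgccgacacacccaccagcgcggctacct
The windows of Fads2 and Fads1 are shown because the genes are neighbours that varied together from liver to liver while Fads2 alone passed the test in pups. They lie at chr1:216171984-216172283 on the minus strand and at chr1:216252442-216252741 on the plus strand, and capitals mark CCAAT boxes, found in the window of Fads1.
Fads2: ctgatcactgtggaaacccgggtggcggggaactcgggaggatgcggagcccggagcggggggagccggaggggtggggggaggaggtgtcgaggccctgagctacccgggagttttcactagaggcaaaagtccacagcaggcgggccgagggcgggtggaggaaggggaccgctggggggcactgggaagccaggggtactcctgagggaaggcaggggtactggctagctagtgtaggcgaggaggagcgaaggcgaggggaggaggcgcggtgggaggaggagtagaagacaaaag
Fads1: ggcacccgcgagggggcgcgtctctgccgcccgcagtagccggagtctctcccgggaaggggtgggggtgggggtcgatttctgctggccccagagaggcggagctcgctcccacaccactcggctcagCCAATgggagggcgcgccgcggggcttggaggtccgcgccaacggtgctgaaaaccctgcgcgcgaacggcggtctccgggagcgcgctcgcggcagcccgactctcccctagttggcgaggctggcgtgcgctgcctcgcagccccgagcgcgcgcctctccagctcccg
The window of Srebf1, a regulator that fell in male pups, lies at chr10:45518961-45519260. That of Acly, whose dose change differed between adult and pup males, lies at chr10:85963582-85963881, and both are on the minus strand. Capitals again mark CCAAT boxes, which read ATTGG where they lie on the other strand.
Srebf1: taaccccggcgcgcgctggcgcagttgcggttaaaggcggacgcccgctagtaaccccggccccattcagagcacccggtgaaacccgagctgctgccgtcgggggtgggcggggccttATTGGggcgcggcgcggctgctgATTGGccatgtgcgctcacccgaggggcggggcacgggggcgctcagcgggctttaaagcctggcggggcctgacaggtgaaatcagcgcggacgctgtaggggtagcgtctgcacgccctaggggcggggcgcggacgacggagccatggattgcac
Acly: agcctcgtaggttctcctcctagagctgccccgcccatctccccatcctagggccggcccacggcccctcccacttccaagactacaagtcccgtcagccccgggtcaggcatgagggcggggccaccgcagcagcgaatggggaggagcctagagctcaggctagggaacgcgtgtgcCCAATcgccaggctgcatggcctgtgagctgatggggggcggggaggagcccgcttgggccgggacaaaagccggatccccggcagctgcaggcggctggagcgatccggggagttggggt
A total of 7 motifs was searched on both strands in all 33469 promoter windows of the table. The antioxidant element TGACNNNGC was held by 12.1% of all windows, and the window of Me1 matched it as TGACTCAGC at position -167 from the start. The window of Scd, a gene that did not pass in any dose comparison, matched the same element on the other strand as GCACGGTCA at position -127. The CCAAT box was held by 37.5% of all windows, and it was found at positions -131 and -108 of the Srebf1 window shown, at -169 of the other Srebf1 window, at -121 in Fads1, at -121 in Thrsp and at -71 in Acly. The sterol element TCACNCCAC was held by 1.12% of all windows and by 0 of the 8 windows of these genes. The other motifs were the GC box GGGCGG (33.1% of all windows), the E-box CACGTG (6.42%) and the xenobiotic element core GCGTG (29.7%). The last was a direct repeat of AGGTCA with 4 bases between the copies, held by 0.00598%. The xenobiotic core lay in the windows of Acly, Scd, Fads1 and Me1 and in the Srebf1 window shown. In Me1 it lay at positions -241 and -83. The GC box lay in the windows of Acly, Fads1, Fads2, Me1, Srebf1 and Thrsp. No window of these genes held the E-box or the direct repeat. In the window of Fads2 the GC box at position -99 was the single match among the motifs searched. GCGTG and CACGTG can overlap by their shared letters. These matches describe letters in a window and were not tested for binding.

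In male pups, PBDE livers had more Me1 RNA and less Fads2, Fasn and Srebf1 RNA than control livers. Of the 10 genes, 4 passed the test, 1 higher and 3 lower, where 7.48% of all genes passed, 4.23% higher and 3.26% lower. The median log2 change was -0.72 over the 10 genes and 0.02 over all genes.

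Fads2, the first desaturase of polyunsaturated fatty acid synthesis, read 10.58, 11.05, 9.85, 10.87 and 10.44 in the 5 PBDE male pups, against 12.36, 12.26, 11.61, 12.20 and 12.21 in the 5 control male pups. Every PBDE male pup lay below every control. This was a log2 change of -1.57 ± 0.19 (SE, n = 5 each), a level 2.97-fold lower in PBDE (limma adjusted p = 1.21e-06).

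Me1 read 10.88, 11.03, 11.16, 10.78 and 10.69 in PBDE male pups, against 9.78, 9.79, 9.13, 9.45 and 8.98 in control male pups. All PBDE values lay above all control values. PBDE raised the log2 level by 1.49 ± 0.20 (limma adjusted p = 9.12e-06), 2.80-fold, and the other Me1 probe set gave 1.54 ± 0.26.

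Srebf1 read 10.60, 10.26, 9.99, 10.17 and 10.46 in PBDE male pups, against 11.02, 11.27, 11.61, 11.07 and 11.29 in control male pups. The groups did not overlap. Srebf1 changed by -0.95 ± 0.17 (limma adjusted p = 4.08e-04), and the second Srebf1 probe set gave -0.91 ± 0.17.

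Fasn, the multienzyme that builds palmitate, read 11.64, 11.43, 10.77, 10.56 and 11.29 in PBDE male pups, against 12.03, 12.76, 12.48, 11.77 and 12.23 in control male pups. The highest PBDE value lay just under the lowest control value. On the log2 scale Fasn changed by -1.12 ± 0.27 (limma adjusted p = 0.00577), and the second Fasn probe set gave -1.58 ± 0.32 (limma adjusted p = 0.00137). The call on the representative was lost in 7 of 19 alternative settings, with adjusted p up to 0.0246, 5 of them leaving out 1 liver: PBDE male pup 3 (0.0211) or 4 (0.0246), or control male pup 2 (0.0235), 3 (0.0178) or 5 (0.0129). The second probe set passed in all 18 alternative settings run for it, with an adjusted p of at most 0.00716.

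The other 6 genes did not pass in male pups. Acly read 11.42 to 12.62 in PBDE male pups and 12.86 to 13.36 in control male pups, so that these groups did not overlap either, but its log2 change of -0.81 ± 0.24 had a limma adjusted p of 0.0256. With Acly, 5 of the 10 genes had groups that did not overlap, as had 11.9% of all genes. Scd had the widest spread, 8.0 to 12.17 in PBDE male pups and 11.04 to 12.67 in control male pups, and its log2 change of -1.34 carried a 95% interval of -2.79 to 0.11. Elovl6 gave -0.63 (interval -1.32 to 0.05), Fads1 -0.23 (interval -0.46 to 0.01), Thrsp -0.22 (interval -0.63 to 0.19) and Acaca 0.01 (interval -0.40 to 0.43). The other 2 Thrsp probe sets gave -0.66 and -0.54, with limma adjusted p of 0.114 and 0.161. The second Elovl6 probe set gave -0.92 (0.115) and the second Acaca probe set -0.058.

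**Figure D1:**
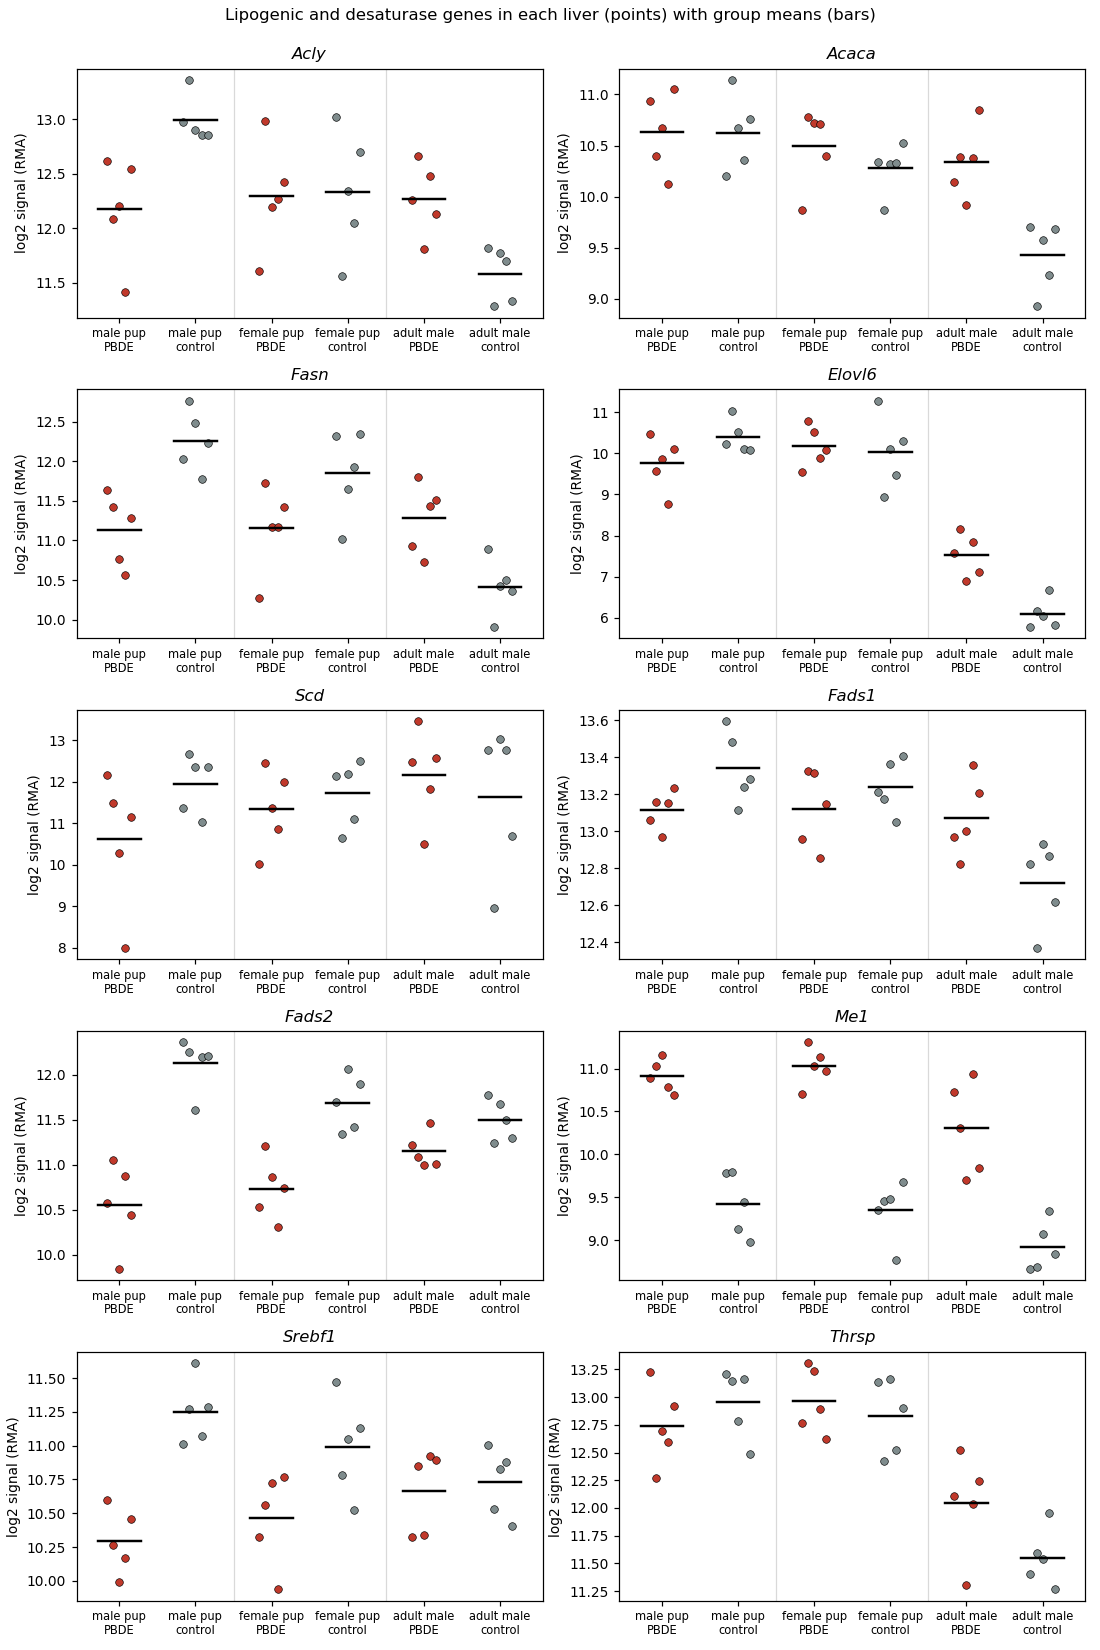
Log2 signal of the representative probe set of each of the 10 genes in the 30 livers, with 1 point per liver and a bar for the mean of each group of 5; PBDE livers are red and control livers grey. Me1 lay higher in every PBDE liver than in every control of the same age and sex, while Scd spread over several log2 units within groups.

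Female pups showed the changes of Me1 and Fads2, and the other 8 genes did not pass. The 2 calls, 1 higher and 1 lower, stood beside 6.13% of all genes, 3.95% higher and 2.18% lower. The median log2 change was -0.08 over the 10 genes and 0.02 over all genes. PBDE and control females lay in different array batches.

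Me1 read 10.70, 11.31, 11.03, 11.13 and 10.97 in PBDE female pups, against 9.35, 9.46, 9.48, 8.78 and 9.68 in control female pups. The lowest PBDE value was more than a log2 unit above the highest control. Me1 was 3.20-fold higher in PBDE females, a log2 change of 1.68 ± 0.20 (limma adjusted p = 1.58e-06), and its other probe set gave 1.97 ± 0.26 (limma adjusted p = 6.31e-06).

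Fads2 read 10.53, 11.21, 10.87, 10.31 and 10.75 in PBDE female pups, against 11.70, 11.35, 12.06, 11.42 and 11.90 in control female pups. The groups again did not overlap, though the highest PBDE liver came close to the lowest control. Fads2 was 1.94-fold lower in PBDE females, a log2 change of -0.96 ± 0.19 (limma adjusted p = 0.00106). These were the 2 genes of the 10 whose groups did not overlap, as against 10.9% of all genes.

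Srebf1 averaged 10.46 ± 0.34 in PBDE female pups and 10.99 ± 0.36 in control female pups (SD, n = 5 each), a log2 change of -0.53 ± 0.17 with a limma adjusted p of 0.0552. Fasn averaged 11.15 ± 0.54 in PBDE female pups and 11.85 ± 0.55 in control female pups, a change of -0.69 with a limma adjusted p of 0.117. For both genes some PBDE females lay within the control range. The second Srebf1 probe set gave -0.57 ± 0.17 with a limma adjusted p of 0.0301, not past the threshold, though its groups did not overlap. The second Fasn probe set gave -0.89 with a limma adjusted p of 0.0916. The intervals of Acly (-0.53 to 0.45), Acaca (-0.20 to 0.63), Elovl6 (-0.54 to 0.83), Fads1 (-0.36 to 0.11), Thrsp (-0.28 to 0.54) and Scd (-1.83 to 1.07) all held 0. Their other probe sets gave -0.051 for Acaca, 0.097 for Elovl6, and -0.34 and -0.22 for Thrsp, none past the threshold.

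In adult males, Me1, Acaca and Elovl6 were higher in PBDE livers. These 3 calls, all higher, stood beside 3.90% of all genes, 1.86% higher. The same 3 genes were those of the 10 whose groups did not overlap, as against 4.59% of all genes, and 2.04% of all genes were lower. The median log2 change was 0.60 over the 10 genes and 0.01 over all genes.

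Me1 read 10.73, 10.30, 9.71, 10.94 and 9.84 in PBDE adults, against 8.67, 8.69, 9.07, 9.35 and 8.84 in control adults. The groups did not overlap, and the PBDE adults spread more widely than the PBDE pups did. PBDE raised the log2 level of Me1 by 1.38 ± 0.20 (limma adjusted p = 1.07e-04), and the other probe set gave 1.47 ± 0.26 (limma adjusted p = 0.00107).

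Acaca, whose product malonyl-CoA is the building block of the chain, read 10.14, 10.39, 9.92, 10.38 and 10.85 in PBDE adults, against 9.70, 8.93, 9.57, 9.24 and 9.69 in control adults. All PBDE adults lay above all controls. The log2 change was 0.91 ± 0.20 (limma adjusted p = 0.00976), a 1.88-fold higher level. The second Acaca probe set read 4.56 to 5.03 over both groups, below the array medians, and its change was -0.05 (interval -0.26 to 0.15).

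Elovl6 read 7.58, 8.16, 6.89, 7.85 and 7.12 in PBDE adults, against 5.78, 6.17, 6.03, 6.67 and 5.82 in control adults. The groups did not overlap, and the controls stood just above the array medians. The log2 change was 1.43 ± 0.33 (limma adjusted p = 0.014), a 2.69-fold higher level. The second Elovl6 probe set gave 1.05 with a limma adjusted p of 0.121, and the call on the representative was lost, at an adjusted p of 0.05004 and with a change of 1.30, when a measure of RNA integrity was added to the model. That second probe set read 4.73 to 5.47 in control adults, below the array medians.

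Fasn averaged 11.28 ± 0.44 in PBDE adults and 10.42 ± 0.35 in control adults (SD, n = 5 each), and its change of 0.86 ± 0.27 had a limma adjusted p of 0.0741. Its second probe set gave 0.76 with a limma adjusted p of 0.219. Without PBDE adult 3, 5 of the 10 genes passed, Fasn (adjusted p = 0.0462) and Thrsp (adjusted p at the threshold of 0.05) being the added ones. Without PBDE adult 2, Fads1 passed with an adjusted p of 0.0493.

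The remaining 6 genes did not pass in adults. Acly changed in log2 signal by 0.68 (interval 0.19 to 1.17), Thrsp by 0.49 (0.08 to 0.90) and Fads1 by 0.35 (0.12 to 0.59). The other 2 Thrsp probe sets gave 0.049 and 0.10, with limma adjusted p of 0.955 and 0.884. Fads2 gave -0.34 (interval -0.72 to 0.04) and Srebf1 -0.06 (interval -0.42 to 0.29). The second Srebf1 probe set gave -0.35 (interval -0.69 to -0.0035), with a limma adjusted p of 0.299. Scd read 10.51 to 13.46 in PBDE adults and 8.96 to 13.04 in control adults, and its difference of 0.53 became -0.15 without control adult 2.

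**Figure D2:**
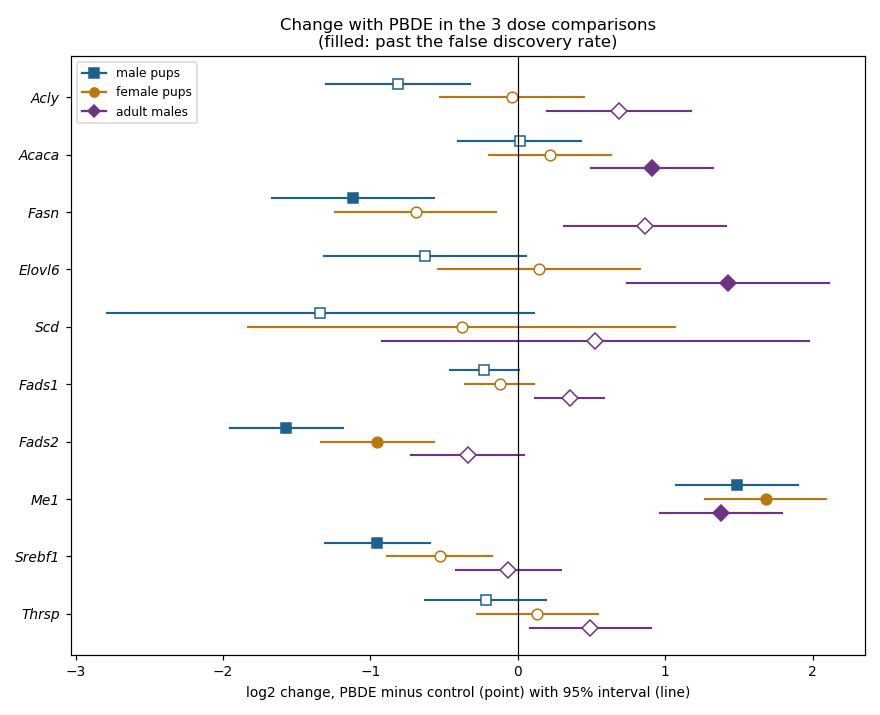
Log2 change of PBDE over control for each gene in male pups (squares), female pups (circles) and adult males (diamonds), with 95% intervals as lines and filled symbols where the false discovery rate was passed. The 3 Me1 changes lie between 1.38 and 1.68, whereas those of Fasn run from -1.12 in male pups to 0.86 in adult males.

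The series design asks whether the effect of dose in males depended on age, and this was tested as the adult dose change minus the pup dose change. Of the 10 genes, 4 passed (Fasn, Elovl6, Acly and Fads2), all with a more positive change in adults, where 2.48% of all genes passed, 1.13% in that direction and 1.35% in the other. The median of this difference was 1.06 over the 10 genes and -0.01 over all genes. The difference joins dose changes that were each measured within a batch. Adults went on being dosed after weaning, on 5 days per week. Age therefore cannot be told apart here from the length and schedule of dosing.

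For Fasn the dose change was 0.86 in adults and -1.12 in pups, a difference of 1.98 ± 0.38 (limma adjusted p = 0.00441), and its second probe set gave 2.34 ± 0.46. For Acly it was 0.68 in adults and -0.81 in pups, a difference of 1.5 ± 0.34 (limma adjusted p = 0.0167). Neither dose change of Acly passed by itself.

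For Elovl6 the dose change was 1.43 in adults and -0.63 in pups, a difference of 2.06 ± 0.47 (limma adjusted p = 0.0192). The second Elovl6 probe set gave 1.97 with a limma adjusted p of 0.044, a call lost in 16 of 28 alternative settings. Its control adults lay below the array medians. For Fads2 the dose change was -0.34 in adults and -1.57 in pups, a difference of 1.23 ± 0.27 (limma adjusted p = 0.0125), so that the fall in pups was larger.

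Srebf1 gave a difference of 0.89 ± 0.25 (limma adjusted p = 0.0548), Fads1 one of 0.58 ± 0.16 (0.0581) and Acaca one of 0.90 ± 0.29 (0.106). Srebf1 passed in 9 and Fads1 in 5 of 29 alternative settings. For Me1 the difference was -0.11, with a 95% interval of -0.69 to 0.48. Scd gave 1.86, with an interval of -0.18 to 3.91. The other probe sets of these genes gave 0.56 for Srebf1 (limma adjusted p = 0.269), 0.0051 for Acaca and -0.068 for Me1. The 3 Thrsp probe sets gave 0.71, 0.71 and 0.64, with limma adjusted p of 0.229, 0.404 and 0.403.

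Sex was compared within control pups, within PBDE pups and as a difference of dose changes. In limma, 0 of the 10 genes passed in each, where 0.0422% of all genes passed in control pups, 0.0563% in PBDE pups and 0.00% for sex by dose. At an unadjusted p below 0.05 there were 2 genes in control pups, 0 in PBDE pups and 2 for sex by dose. The share of all genes at that unadjusted limit was not counted, here or for the cholesterol genes and cell markers below. Acly averaged 12.99 ± 0.21 in control males and 12.34 ± 0.57 in control females, and Fads2 averaged 12.13 ± 0.30 in control males and 11.69 ± 0.30 in control females (SD, n = 5 each). The same genes had the lowest p for sex by dose, the male dose change minus the female one being -0.77 for Acly (interval -1.47 to -0.08) and -0.61 for Fads2 (interval -1.16 to -0.07). Both had a limma adjusted p of 0.953. The sex by dose difference contains the same control pups, so a gene higher in control males leans below 0 there. It is not a separate result. Sex and batch cannot be told apart in PBDE pups, nor in the difference of dose changes.

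Control livers themselves differed with age. Of the 10 genes, 8 were lower in control adults than in control male pups, where 29.5% of all genes passed, 18.6% lower and 10.9% higher. These groups lay in different batches, so that batch and age cannot be told apart, and the comparison shares its controls with the dose comparisons. RNA integrity differed between them as well. The difference between 3' and 5' Gapdh control probe sets, larger in degraded RNA, was 1.20 to 2.07 in control male pups. It was 0.32 to 0.78 in control adults, without overlap. Elovl6 averaged 6.09 ± 0.36 in control adults and 10.39 ± 0.39 in control male pups, a log2 change of -4.29 ± 0.33 (limma adjusted p = 7.41e-11), the largest of the 10.

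Fasn averaged 10.42 ± 0.35 in control adults and 12.26 ± 0.38 in control male pups, a change of -1.84 (limma adjusted p = 6.28e-06). Thrsp gave -1.41, Acly -1.40, Acaca -1.20 and Fads1 -0.62, each with a limma adjusted p of 1.51e-04 or below. Fads2 gave -0.63 and Srebf1 -0.52, with limma adjusted p of 0.0139 and 0.0284. The second Srebf1 probe set gave -0.09. With RNA integrity in the model neither call passed, Fads2 giving -0.63 (adjusted p = 0.0706) and Srebf1 -0.29 (adjusted p = 0.41). The second probe sets of Elovl6 and Fasn gave -4.44 and -2.18, the other 2 of Thrsp -0.83 and -1.12, and the second of Acaca -0.077, all but the last past the threshold. On the second Elovl6 probe set the control adults lay below the array medians. Me1 gave -0.50 with a limma adjusted p of 0.0725, although its second probe set passed at -1.22, and Scd gave -0.31.

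The genes also varied among livers of a group. As deviations from the group mean over 30 arrays, 16 of 45 pairs of genes were correlated at an adjusted p of 0.05 or below by both Pearson's r and Spearman's rho, over 100000 permutations within groups, and all 16 were positive. Livers of a group share batch, and each array carries its own RNA quality into all of its genes.

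Acly and Fasn had an r of 0.846 and a rho of 0.794, with permutation p of 1e-05 for each, the smallest these permutations can give (adjusted p = 1.12e-04 and 1.5e-04). Without the 2 arrays farthest from the median r was 0.802, and it was 0.816 and 0.888 within the batches. Acly and Elovl6 had an r of 0.877 and a rho of 0.811 (permutation adjusted p = 1.12e-04 and 2.7e-04), with 0.826 without the 2 farthest arrays and 0.970 and 0.727 within the batches. Livers high in citrate lyase for their group tended to be high in the synthase and the elongase as well.

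Fads1 and Fads2 had an r of 0.699 and a rho of 0.731 (permutation adjusted p = 1.8e-04 and 2.25e-04), with 0.683 without the 2 farthest arrays and 0.693 and 0.784 within the batches. For each of the pair this was the single correlation of the 9 that passed. The 2 genes lie side by side on chromosome 1, with 0 protein-coding genes between them. Me1 passed in 0 pairs. Its highest correlation with another gene of the set was 0.456, with Fads1 (rho 0.493, permutation adjusted p = 0.0654 and 0.0416), and with Fasn it was 0.176.

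Over the same 30 arrays the genes most like Fasn among all genes were Acly, Scd and Acaca (r = 0.846, 0.789 and 0.762), followed by Stra6l and Dpt (0.744 and 0.705). Those most like Fads2 were Fads1 (0.699) and Nsdhl, an enzyme of cholesterol synthesis (0.690), then Ryr2, Arsg and Dnajc22 (0.680, 0.649 and 0.639). Those most like Me1 were Atpaf1, Tprg1l, Lactb2, Zfp950l1 and Entpd2, with r of 0.687, 0.672, 0.644, 0.635 and 0.621. These likenesses describe 30 arrays and were not tested.

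**Figure D3:**
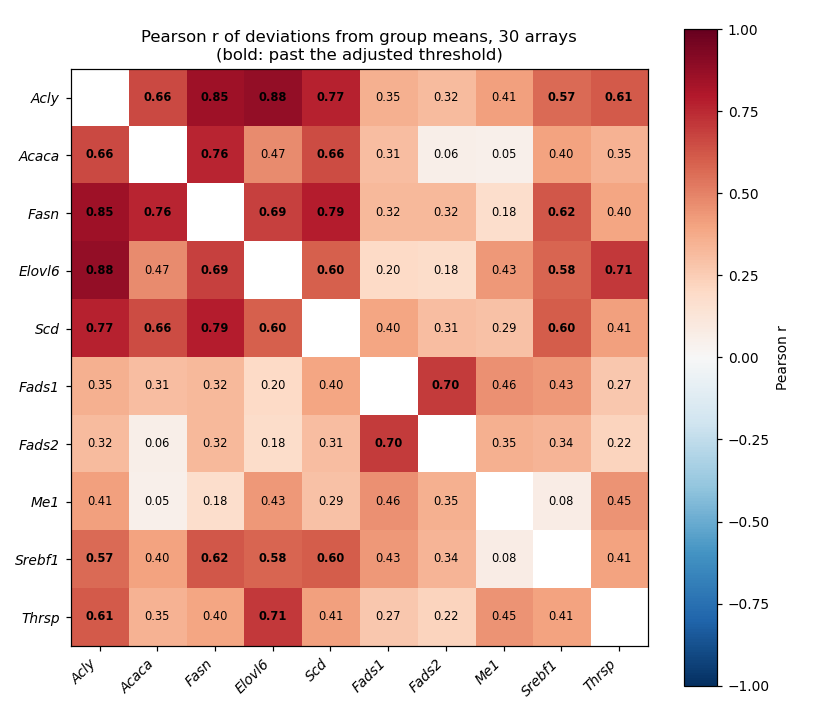
Pearson r between the deviations of each pair of the 10 genes from their group means over 30 arrays, with bold figures for pairs past the adjusted threshold. Acly, Fasn, Elovl6 and Scd form a block of high values, Fads1 and Fads2 a pair, and Me1 has no value in bold. Srebf1 is in bold with each gene of the block (0.57 to 0.62), Acaca with all of them but Elovl6, and Thrsp with Acly and Elovl6.

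**Figure D4:**
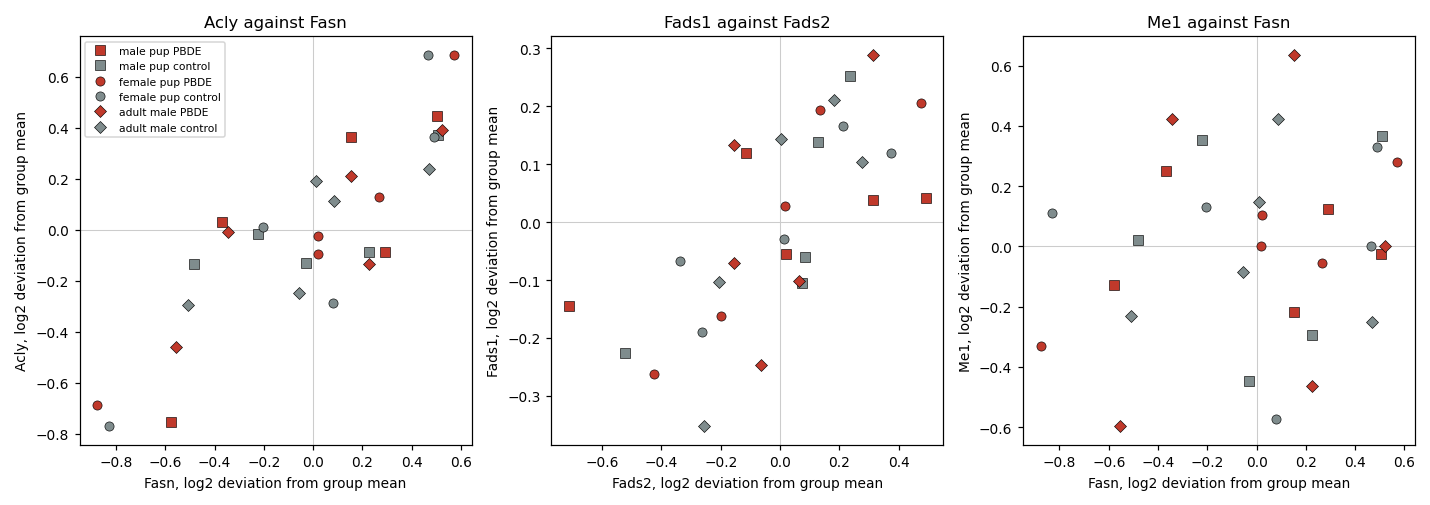
Deviation from the group mean in each of 30 livers for Acly against Fasn, Fads1 against Fads2 and Me1 against Fasn, in log2 units, with shape for age and sex and colour for dose. The first 2 panels rise from lower left to upper right (r = 0.846 and 0.699), and the third is scattered (r = 0.176).

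Of the other lipid genes listed with the pathway, 52 could be read. In male pups 4 were higher and 7 lower in PBDE livers, where 4.23% of all genes were higher and 3.26% lower. In female pups 1 was higher and 2 were lower, beside 3.95% and 2.18% of all genes. In adults 1 was higher, beside 1.86% of all genes. Past the threshold, the dose change was more positive in adults than in male pups for 3 and more negative for 2. In these directions 1.13% and 1.35% of all genes passed. The median log2 change of the 52 was 0.00 in male pups, 0.04 in female pups and 0.03 in adults, against 0.02, 0.02 and 0.01 over all genes.

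Among genes that control the processing of SREBP, Insig2, which holds the precursor in the endoplasmic reticulum, averaged 12.61 in PBDE male pups and 11.44 in control male pups, a log2 change of 1.16 ± 0.18 (limma adjusted p = 5.73e-05). Scap, the escort that carries the precursor to the Golgi, averaged 9.07 in PBDE and 9.96 in control male pups, a change of -0.90 ± 0.13 (limma adjusted p = 3.82e-05). Scap was also lower in PBDE female pups (-0.73 ± 0.13). Averaged over the probe sets of the gene, the changes of Scap were -0.60 in male and -0.38 in female pups, both still past the threshold. In adults Insig2 gave 0.09 and Scap -0.13, and for both genes the adult dose change differed from the pup one, by -1.07 and 0.77 (limma adjusted p = 0.0234 and 0.0296). The first of these calls was lost in 2 and the second in 5 of 29 alternative settings, and the second value was 0.47 over the averaged probe sets.

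In triglyceride assembly, Lpin1 (-0.98 ± 0.20), the lipid droplet coat genes Plin2 (-0.73) and Plin5 (-0.64), the acyl-CoA synthetase Acsl5 (-0.65) and Dgat2 (-0.31) were lower in PBDE male pups, and Dgat1, the other diacylglycerol acyltransferase, was higher (0.44 ± 0.07). The call on Plin2 was lost in 15 of 19 alternative settings, 8 of them leaving out 1 liver, with an adjusted p of up to 0.0441, that on Dgat2 in 3 and that on Plin5 in 2. The Acsl5 change was -0.43 over averaged probe sets. In PBDE female pups Dgat1 was higher (0.46) and Acsl5 lower (-0.59), the Acsl5 call being lost in 11 of 19 settings and its change being -0.29 over averaged probe sets. Lpin2 was the single gene of the list to pass in adults, at 0.66 ± 0.18 (limma adjusted p = 0.0383). That call was lost in 9 of 19 settings, with an adjusted p of up to 0.151, and its change was 0.25 over averaged probe sets. Fads3, the third gene of the desaturase cluster, was higher in PBDE male pups (0.65 ± 0.14), opposite in sign to Fads2. Its level was low, averaging 6.25 in PBDE and 5.61 in control male pups, the control mean lying below the array medians. Idh1, another source of NADPH, was higher by 0.29, and Ppargc1b, a coactivator of SREBP, was lower by a log2 change of -0.86. Averaged over its probe sets, Idh1 gave 0.67. Of 19 settings the call on Ppargc1b was lost in 10, 8 of them leaving out 1 liver. That on Fads3 was lost in 3 and that on Idh1 in 2. As adult minus male pup dose change, Dgat1 gave -0.63, Dgat2 0.46 and Ppargc1b 1.34. Their limma adjusted p were 9.58e-04, 0.0119 and 0.0125, and these calls passed in all 29 alternative settings.

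Cholesterol synthesis, which responds to the same family of transcription factors, gave 9 of 18 genes lower in PBDE male pups, beside 3.26% of all genes, and 4 of 18 lower in PBDE female pups, beside 2.18%. In male pups the calls on Hsd17b7, Idi1 and Lss passed in all 19 alternative settings, while those on Fdps, Mvd, Mvk, Nsdhl, Ebp and Sqle were lost in 9, 8, 8, 6, 5 and 3 of them. In female pups the call on Lss was lost in 12 and that on Idi1 in 1 of 19, and those on Hsd17b7 and Ebp in 0. The median change of the 18 was -0.66 in male pups and -0.56 in female pups. Hsd17b7 had the largest change, at -1.48 ± 0.23 in male pups and -1.36 ± 0.23 in female pups, followed by Idi1 at -1.41 and -1.28. In adults limma called 0 of the 18, with 2 at an unadjusted p below 0.05, and the median change was 0.13. The adult dose change was more positive than the pup one, past the threshold, for 4 of the 18 (Lss, Hsd17b7, Msmo1 and Nsdhl), where 1.13% of all genes passed in that direction. The call on Msmo1 was lost in 14 and that on Nsdhl in 19 of 29 alternative settings.

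**Figure D5:**
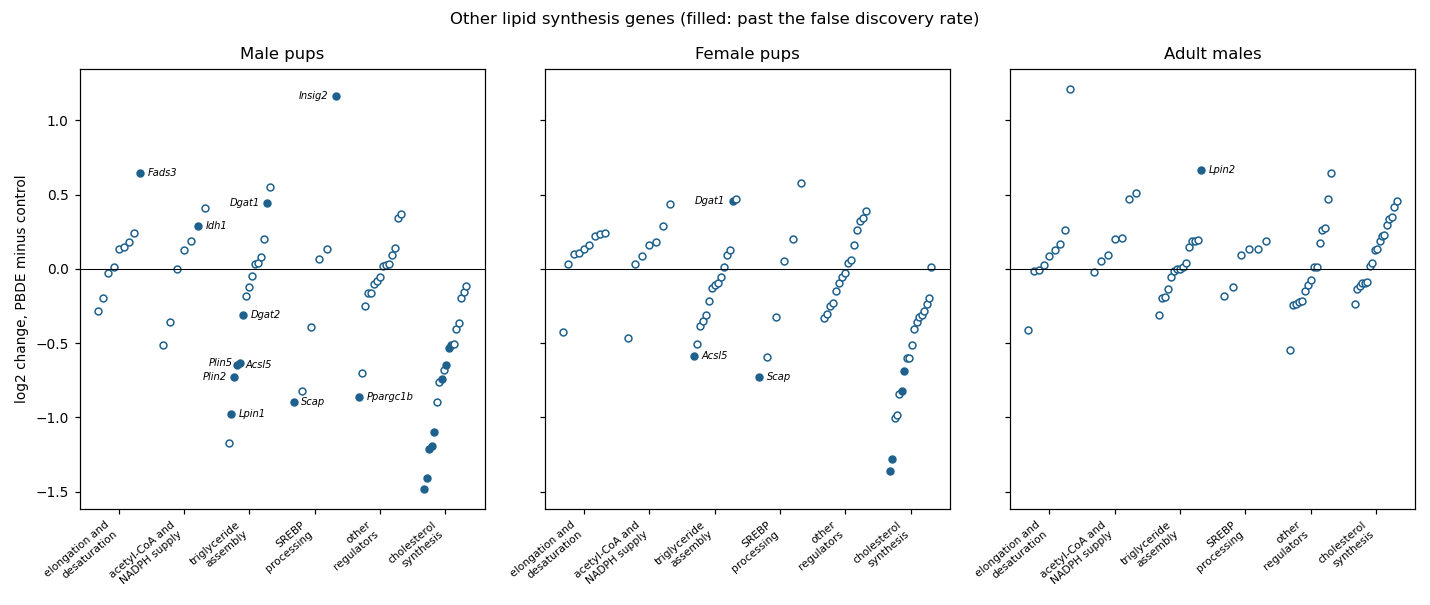
Log2 change of PBDE over control for the other lipid synthesis genes, 1 point per gene ordered by size within each role, in male pups, female pups and adult males; filled points passed the false discovery rate and are named outside the cholesterol list. Cholesterol synthesis genes lie below 0 in male pups and around 0 in adults, and the highest unfilled adult point in the first column is Scd2 at 1.21.

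RNA integrity and cell markers were set beside these results. The difference between 3' and 5' Gapdh control probe sets, larger in degraded RNA, was 2.09 ± 0.65 in PBDE and 1.61 ± 0.33 in control male pups (exact permutation p = 0.198, two-sided). It was 1.93 ± 0.30 in PBDE and 1.26 ± 0.50 in control female pups (exact p = 0.0397), and 1.17 ± 0.62 in PBDE and 0.62 ± 0.18 in control adults (exact p = 0.0238). Adjusted over the 3, these p were 0.198, 0.0595 and 0.0595. With this difference in the model, the change of Fads2 in male pups was -1.57, that of Srebf1 -1.07, that of Fasn -1.25 and that of Me1 1.51. The calls on Me1 and Fads2 in female pups and on Me1 and Acaca in adults passed in all 19 alternatives, this model included. Apart from leaving out livers, these gave 1.67 to 1.82 for Me1 and -0.97 to -0.95 for Fads2 in female pups. In adults they gave 1.36 to 1.43 for Me1 and 0.43 to 0.93 for Acaca, while the Elovl6 call was lost in this model.

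The mean of the 7 hepatocyte markers ran from 14.49 to 14.56 in PBDE male pups and from 14.59 to 14.64 in control male pups, and from 14.51 to 14.57 in PBDE female pups and from 14.61 to 14.66 in control female pups. The groups did not overlap in either sex. The urea cycle gene Cps1, 1 of the 7 markers, was lower past the threshold in both (-0.29 and -0.31). At an unadjusted p below 0.05 in limma there were 2 of the 7 in male and 5 in female pups. Of the 7 changes, 6 in male and 5 in female pups were below 0. In adults the mean ran from 14.43 to 14.57 in PBDE and from 14.56 to 14.63 in control livers. There 0 of 7 passed the threshold in limma and 0 had an unadjusted p below 0.05.

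The mean of 5 Kupffer cell and macrophage markers ran from 8.79 to 8.98 in PBDE male pups and from 9.15 to 9.49 in control male pups, 2 of the 5 being lower past the threshold, beside 3.26% of all genes. It ran from 8.86 to 9.32 in PBDE and from 8.84 to 9.84 in control female pups, with 0 of 5 past the threshold in limma and 0 at an unadjusted p below 0.05. In adults it ran from 8.49 to 9.19 in PBDE and from 9.05 to 9.63 in control livers. There 1 of 5 was lower past the threshold, beside 2.04% of all genes. All 5 adult changes were below 0 with an unadjusted p below 0.05 in limma, and in male pups 3 of the 5 had such a p.

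The mean of 4 endothelial markers ran from 9.11 to 9.42 in PBDE male pups and from 9.56 to 9.96 in control male pups, 2 of the 4 being lower, beside 3.26% of all genes. It ran from 9.19 to 9.52 in PBDE and from 9.53 to 9.80 in control female pups, again without overlap but with 0 of 4 past the threshold in limma, 3 having an unadjusted p below 0.05. In adults the mean ran from 8.87 to 9.37 in PBDE and from 9.06 to 9.31 in control livers. There 0 of 4 passed the threshold and 0 had that unadjusted p, which 3 of the 4 had in male pups. The part of these cells in the changes of the lipogenic genes was not tested.

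Adipose tissue expresses the same lipogenic genes. The mean of 7 adipocyte markers ran from 6.01 to 6.22 in PBDE male pups and from 6.07 to 6.51 in control male pups, from 6.04 to 6.48 in PBDE female pups and from 6.03 to 6.31 in control female pups, and from 5.99 to 6.22 in PBDE adults and from 5.84 to 6.18 in control adults. The groups overlapped in each, and limma called 0 of the 7, with 1, 0 and 1 at an unadjusted p below 0.05 in male pups, female pups and adults. Group means of Cidec lay between 9.56 and 10.16, of Cfd between 7.03 and 7.79 and of Fabp4 between 5.64 and 7.41. Those of Adipoq, Adrb3, Plin1 and Lep were at most 5.47, 5.10, 4.59 and 4.56, below the array medians, although Adipoq reached 6.55 on 1 array. The part of adipose tissue in these results was not tested.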

How the data were processed

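The authors deposited log2 signals, which the submitters' processing notes tie to RMA. The program that ran it is not given in the sources used here. Per the labels' protocols, 50 ng of total RNA was labelled in 2 cycles from the 3' end. RMA brings arrays to a common distribution, so a change is relative to all probe sets. The table held 31099 probe sets on 30 arrays, with 0 unused value columns, and 57 control probe sets were set aside for quality measures. The number of arrays limits the precision.

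In the platform annotation, 20826 probe sets name 1 gene, 436 name several and 9780 name none, and symbols were updated for 20758. In R 4.3.3, limma 3.58.1 fitted the 6 group means jointly (lmFit and eBayes, trend and robust off), with Benjamini-Hochberg adjustment over 31042 probe sets. The thresholds of 0.01 for pups and 0.05 for comparisons with adults follow the series design. The fit was tested on simulated data. Alternatives were the compared groups alone, a replicate block, other shrinkage, a filter on low signal, renormalization, centring, a covariate of RNA integrity, the mean of a gene's probe sets, and each liver left out.

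Each gene is reported from its representative, with its other probe sets beside it for dose and age but not for sex. Of the pathway and cholesterol lists, genes past the threshold are counted and up to 4 per role with the largest change are named; Dgat1 and Dgat2 in male pups, beyond that rule, and Scd2 were chosen after their values were seen. For Fasn, Fads2 and Me1 the 5 genes most like them are named. The 10 genes and the lists were chosen with earlier results of these data known. Replicate numbers in the titles name no shared dam, and arrays of the same number had a mean residual correlation of 0.00417, with 18 of 75 pairs above 0.1. The numbers were therefore not taken to pair the animals.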

Additional observations from a re-analysis of the deposited data

Results flagged for a closer look

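Of 102 groups of 5 livers, taken over the 17 probe sets and 6 groups, 2 held a liver standing apart from the rest of its group, where chance gives about 1 in 20 groups. Fads2 read 11.61 in control male pup 3, below the other control male pups by 0.789 of the range of the group. Acly read 13.36 in control male pup 2, above the other control male pups by 0.773 of the range.

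The dose change differed between adult and pup males, by the test of the difference itself, for 6 probe sets of 4 genes. As adult minus pup change, Fasn gave 1.98 and 2.34 from its 2 probe sets, Elovl6 gave 2.06 and 1.97, Acly gave 1.5 and Fads2 gave 1.23, with limma adjusted p of 0.00441, 0.00504, 0.0192, 0.044, 0.0167 and 0.0125 in that order.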

How the results depend on the processing

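Of 21 calls on the 10 genes, 17 kept their side of the threshold in every alternative and 0 changed sign. The exceptions were Fasn in male pups, Elovl6 in adults, and Fads2 and Srebf1 in control males by age. Over 80 gene and comparison results there were 1720 alternative values. Of these, 16 lost the threshold, 20 gained it and 44 changed sign, none of the last for a gene in a comparison that called it. With a replicate block the calls stayed at 4 in male pups, 2 in female pups, 3 in adults and 4 for age by dose. Leaving out each liver gave 3 to 5 calls in adults, with 5 without PBDE adult 3.

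Signs turned only for uncalled values, many of them near 0. Those of Scd were farther off, at 0.53 for dose in adults and -0.31 by age in control males. With the RNA integrity covariate, Acaca in male pups gave -0.13, Elovl6 in female pups -0.0098, Thrsp in female pups -0.014, Scd by sex in control pups -0.051 and Scd by age 0.51. Averaging probe sets gave -0.023 for Acaca in male pups and -0.14 for Thrsp in female pups, and quantile normalization gave -0.00434 for Acaca in male pups and 0.018 for Fads1 by sex in PBDE pups. Leaving out livers gave -0.10 to 0.14 for Acaca in male pups, -0.23 to 0.13 for Acly and -0.12 to 0.46 for Elovl6 in female pups, -0.15 to 0.021 for Srebf1 and -0.15 to 0.94 for Scd in adults, -0.66 to 0.36 for Scd by age and -0.26 to 0.044 for Me1 by age and dose. By sex in control pups it gave -0.067 to 0.19 for Me1 and -0.032 to 0.47 for Scd. By sex in PBDE pups it gave -0.072 to 0.045 for Fads1, -0.30 to 0.0053 for Fads2, -0.014 to 0.27 for Acaca, -0.29 to 0.066 for Acly and -0.24 to 0.13 for Fasn.

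Over all probe sets, calls in adults numbered 924, but 269 with the compared groups alone, where fewer arrays estimate the spread, and 597 without PBDE adult 4. Calls by age numbered 7146 of 31042 probe sets, but 4305 with the covariate. With probe sets averaged, 4384 of 14217 genes were called, beside 4193 of 14217 by representative, a count of genes and not of probe sets. Calls for age by dose numbered 579, but 376 without PBDE male pup 4, 365 without control male pup 5 and 373 without PBDE adult 4. The causes were not tested. Signals below the array medians, as for the second Acaca probe set, limit what a small change there can show.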
